A study of Homo sapiens with 6 samples.

Results

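The 78 human genes for mitochondrial ribosomal proteins were examined in A375 cells, a human melanoma cell line, after stable overexpression of HMGB2, a DNA-bending chromatin protein. Members were every protein-coding gene of the annotation whose symbol is MRPL or MRPS followed by a number and, at most, a letter from A to C. All 78 had an identifier in the deposited count tables of 58302 genes, 49 with a large subunit name (MRPL) and 29 with a small subunit name (MRPS). They lay on 21 chromosomes. The comparison set 3 RNA-seq libraries of cells stably carrying HMGB2 against 3 libraries of cells carrying the empty vector, and asked how a rise in HMGB2 was accompanied by changes in transcript level. Both lines came from lentiviral transduction of A375, RNA was selected by its poly(A) tail, and each library was made from a separate pellet of cells. The study calls the replicates technical and the RNA-seq was not repeated, so p-values measure the spread between pellets of a single transduced line per group.

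The mitochondrial ribosome translates the few messages encoded in mitochondrial DNA, all of which specify core subunits of the oxidative phosphorylation (OXPHOS) complexes. Its rRNAs are transcribed inside the organelle, whereas its proteins are encoded in the nucleus, made in the cytosol and imported. The small subunit decodes the message, and the large subunit forms the peptide bond and delivers the chain to the inner membrane. A few names do not match the structure: MRPS30 and MRPS18A sit in the large subunit, and MRPS36 belongs to the 2-oxoglutarate dehydrogenase complex.

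HMGB2 itself had normalized counts (counts divided by DESeq2 size factors) of 7250.1, 7729 and 7562 in the empty vector libraries and 15095, 16848 and 14609 in the overexpression libraries. Its log2 fold change was 1.05 ± 0.101 (SE; adjusted p = 4.4e-22, DESeq2), and the groups did not overlap. Reads assigned to genes ranged from 45925053 to 56755212 per library, and the 78 members together took 0.529% to 0.632% of them. Among 8 melanoma markers, MITF, PAX3 and S100B had normalized counts of 779 to 3841, PMEL had 49.6 to 67.0 while keeping 3.37% of its stranded reads, and the pigment genes MLANA, DCT and TYR had at most 10.8, 5.63 and 0.985. SOX10 had no counts in the column for either strand, although the stranded columns held reads for it. Of 4 markers of other cell types, PTPRC was at 0, and the epithelial keratin KRT5 had normalized counts of 5.05, 11.5 and 279 in empty vector replicates 1, 2 and 3 against 199.9 to 289 under overexpression, so that the third empty vector library lay with the overexpression libraries on this gene. EPCAM and PECAM1, the remaining markers of the list, had enough reads to be tested. Over the 3 tested markers, log2 fold changes ran from -0.28 to 1.32 and 0 were called (DESeq2). The third overexpression library had 10.6% multimapped reads, against 2.58% to 4.89% in the others. Results that rest on the third replicates are given with and without them.

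No mitochondrial ribosomal protein gene passed the test. At an adjusted p under 0.05, 0 of 78 members were called (DESeq2), against 4.94% of the 18836 genes tested. At an unadjusted p under 0.05 there were 4 members (5.13%: MRPS18A, MRPL2, MRPS11 and MRPL51), against 14.3% of all genes tested. The quasi-likelihood test of edgeR also called 0 members, with 4 at an unadjusted p under 0.05. The smallest adjusted p among the members was 0.142, for MRPL51. In 9 of 78 members (11.5%) the groups did not overlap, 3 higher and 6 lower under overexpression, whereas 22.8% of the 16692 genes whose mean normalized count was at least 10 showed no overlap.

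The differences were small and measured with some precision. Log2 fold changes ran from -0.67 to 0.33, and 74 of 78 were smaller than 0.3 in either direction. Their standard errors ran from 0.0952 to 0.621 with a median of 0.134. For 70 members the 95% interval lay within a 1.5-fold change in both directions, so that for these genes a larger change was outside the interval. The median log2 fold change was 0.04 over all members, 0.05 over the 49 large subunit genes (34 positive) and -0.05 over the 29 small subunit genes (14 positive), beside 0.003 over all genes tested. With subunits assigned by structure rather than by name, the medians were 0.04 for the large and -0.01 for the small subunit.

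**Figure D1:**
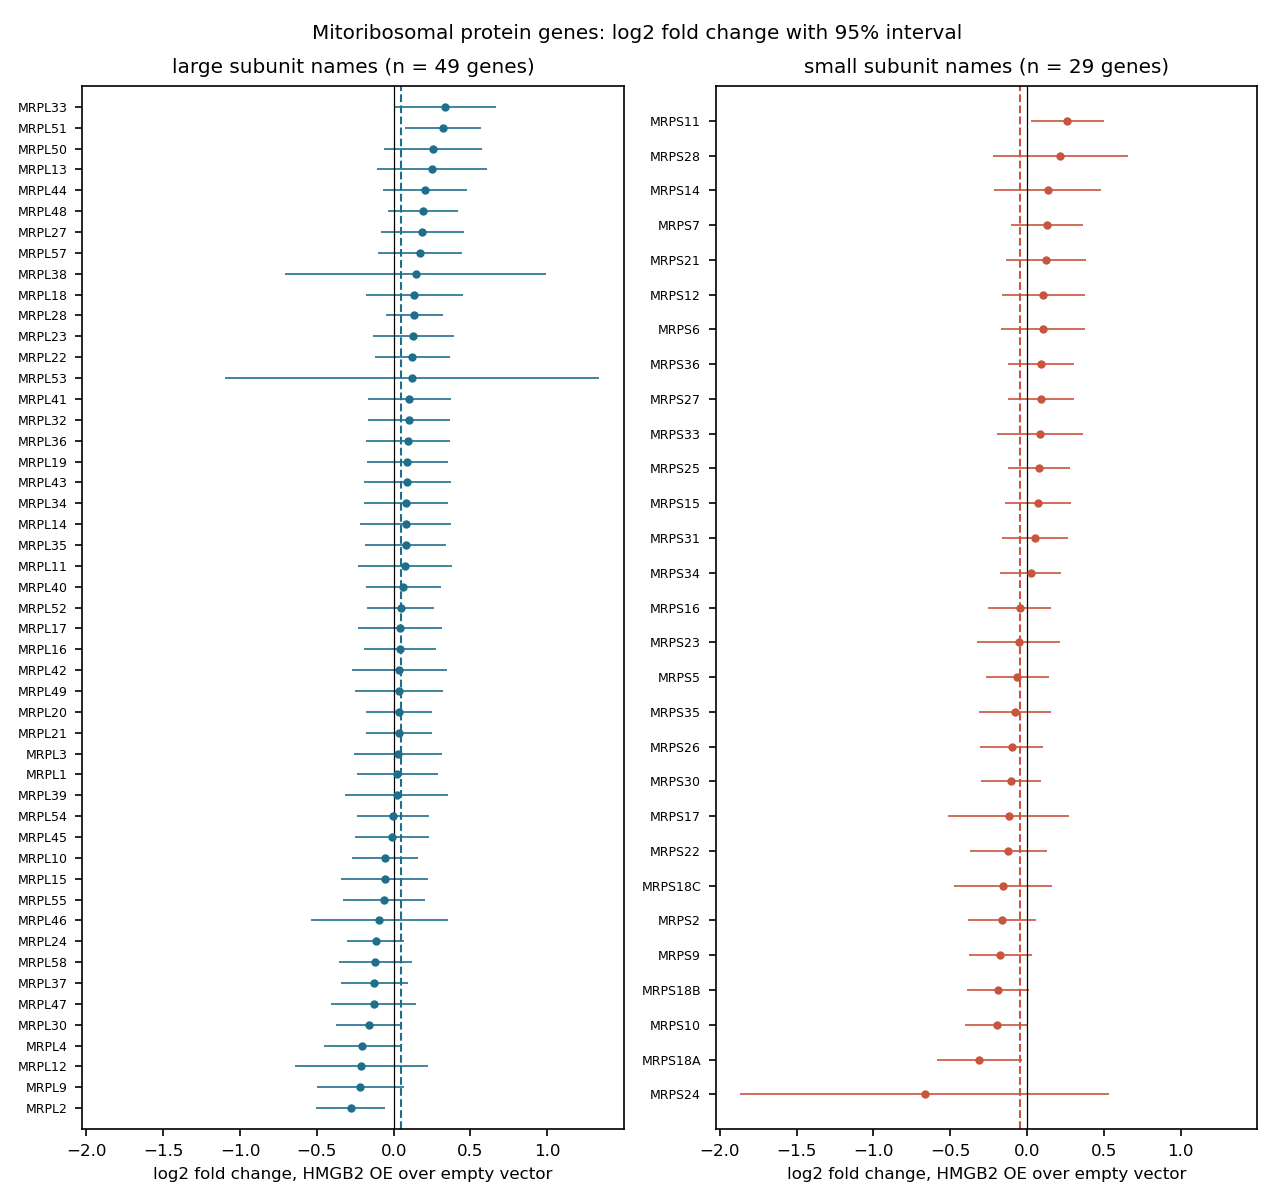
Log2 fold change (x axis, HMGB2 overexpression over empty vector) of each of the 49 large subunit genes (left) and 29 small subunit genes (right), with 95% intervals from the DESeq2 model; dashed lines mark the median of each panel. Nearly all intervals cross 0, those of MRPL51 and MRPS11 lie above it and those of MRPL2 and MRPS18A below it, and MRPL38, MRPL53 and MRPS24 have the widest.

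The largest difference upward among members whose mean normalized count was at least 50 was that of MRPL33, a small protein of the large subunit that bacteria also have. Its normalized counts were 1836, 1964 and 2575 in the empty vector libraries and 2537, 2316 and 3182 in the overexpression libraries. Within each group the third replicate was the highest, and the third empty vector library lay above the first and second overexpression libraries. The log2 fold change was 0.33 ± 0.17 (SE, n = 3 per group, adjusted p = 0.35 by DESeq2). With offsets for GC content and length it was 0.23 (adjusted p = 0.166 by DESeq2). MRPL33 overlaps BABAM2 on the same strand over 21.1% of its exonic bases, and reads in such shared places are counted for neither gene.

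MRPL51, a large subunit protein found only in mitochondrial ribosomes, came next. It had normalized counts of 6462, 6435 and 7405 with the empty vector and 7891, 7825 and 9671 with HMGB2. All overexpression libraries lay above all empty vector libraries, and the log2 fold change was 0.32 ± 0.127 (SE; adjusted p = 0.142, DESeq2). MRPL51 overlaps NCAPD2 on the opposite strand and kept 73.8% of the reads found by counting the strands separately.

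MRPS11, which lies on the platform of the small subunit, had normalized counts of 1542, 1501 and 1489 with the empty vector and 1604, 1802 and 2034 with HMGB2. The groups did not overlap, although the lowest overexpression library was close to the highest empty vector library (log2 fold change 0.26 ± 0.123 SE; adjusted p = 0.274 by DESeq2). Here the third empty vector library was the lowest of its group, unlike in MRPL33 and MRPL51. MRPL50 and MRPL13, both large subunit proteins, completed the 5 largest upward differences with log2 fold changes of 0.26 ± 0.164 and 0.25 ± 0.183 (SE; adjusted p = 0.527 and 0.618, DESeq2), and in both genes the groups overlapped.

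In the other direction, the largest difference at that minimum count was that of MRPS18A, 1 of 3 human proteins related to bacterial S18. Its normalized counts were 2056, 1493 and 1854 with the empty vector and 1471, 1500.1 and 1381 with HMGB2. The second empty vector library fell among the overexpression libraries, so the groups overlapped (log2 fold change -0.31 ± 0.141 SE; adjusted p = 0.251 by DESeq2). MRPS18A, which has RSPH9 on the opposite strand, kept 53.1% of the reads found by counting the strands separately.

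MRPL2, a conserved protein near the peptidyl transferase centre, gave a clearer separation. It had normalized counts of 2716, 2461 and 2879 with the empty vector and 2074, 2189 and 2372 with HMGB2, and every overexpression library lay below every empty vector library. The log2 fold change was -0.28 ± 0.114 (SE; adjusted p = 0.166, DESeq2). MRPL9, MRPL12 and MRPL4 followed with log2 fold changes of -0.22, -0.21 and -0.21, and in all of these the groups overlapped.

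**Figure D2:**
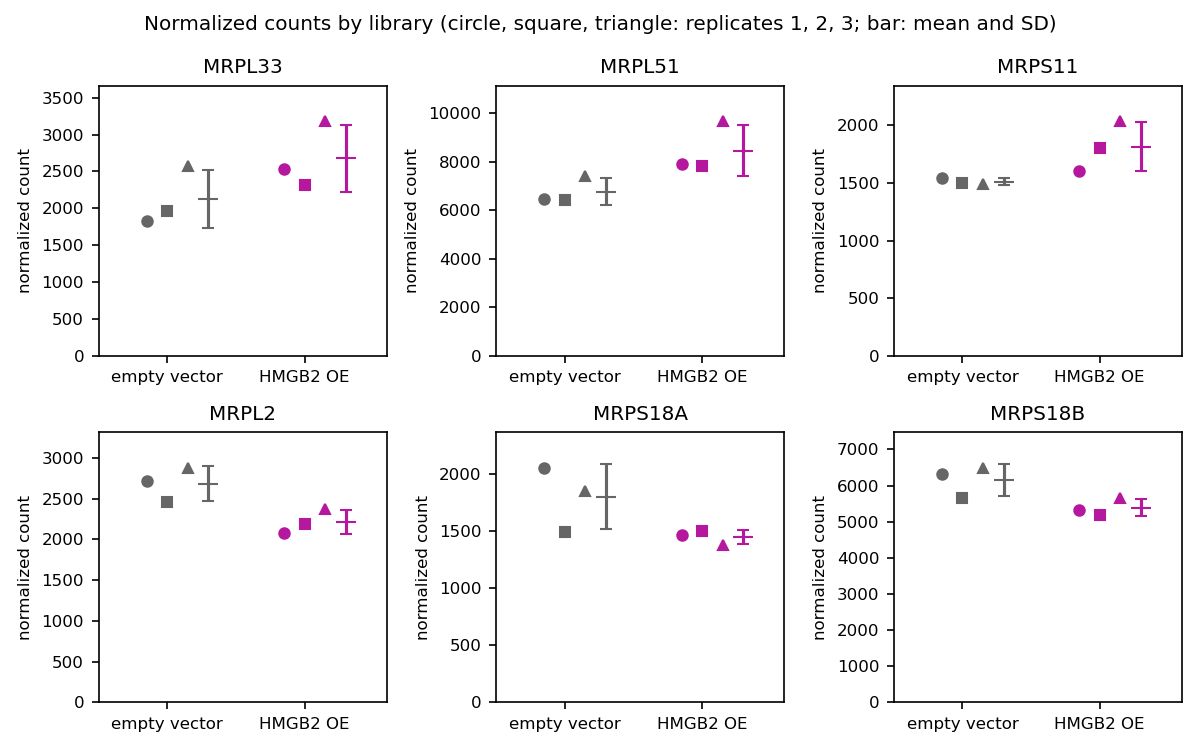
Normalized counts (y axis, from 0) of 6 members in each library, empty vector in grey and HMGB2 overexpression in magenta, with circles, squares and triangles for replicates 1, 2 and 3 and bars for the group mean and SD (n = 3). MRPL51, MRPS11, MRPL2 and MRPS18B show no overlap between groups, whereas MRPL33 and MRPS18A do, and the triangles are the highest of their group in most panels.

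The S18 family divides its members between the subunits. MRPS18B, a small subunit protein of the family, had normalized counts of 6328, 5653 and 6496 with the empty vector and 5331, 5195 and 5652 with HMGB2. The groups nearly touched but did not overlap (log2 fold change -0.19 ± 0.103 SE; adjusted p = 0.396 by DESeq2). MRPS18C, the member that takes the place of bacterial S18, had a log2 fold change of -0.16 ± 0.164 (SE, adjusted p = 0.774 by DESeq2). It kept only 11.4% of its summed stranded reads, a sum that can also hold reads of ABRAXAS1 on the opposite strand. From the summed stranded counts the value was 0.05 ± 0.139 (adjusted p = 0.947). All 3 family members thus had negative values in the column for either strand, the sign of MRPS18C turned in the stranded sum, and none was called in either.

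Further members with well-described roles, in the ribosome or beside it, showed no called difference over all libraries. MRPL12, the stalk protein that also binds the mitochondrial RNA polymerase, had a log2 fold change of -0.21 ± 0.221 (SE) at low counts of 218 to 363. MRPL58, a peptidyl-tRNA hydrolase built into the large subunit, stood at -0.12 ± 0.121, and MRPL44, which has an RNase III-like fold, at 0.20 ± 0.14. MRPL3 and MRPL28 of the large subunit core stood at 0.03 ± 0.148 and 0.13 ± 0.0952, and MRPL41 at 0.10 ± 0.136. In MRPL28 the overexpression libraries, at 7963, 8374 and 9031, all lay above the empty vector libraries at 7583, 7687 and 7835. In the small subunit, MRPS12 at the decoding centre stood at 0.11 ± 0.138 and MRPS22 at -0.12 ± 0.127. MRPS30, which despite its name sits in the large subunit, had a log2 fold change of -0.10 ± 0.1 with all overexpression libraries (6696 to 7039.6) below all empty vector libraries (7061 to 8044). DESeq2 adjusted p-values of these 9 genes ran from 0.581 to 0.972.

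Levels per length were computed as TPM, counts scaled to the length of the canonical transcript and to a constant total per library. The members together made up 0.779% to 0.866% of all TPM in the 6 libraries, with 0.819% ± 0.0438 (SD, n = 3) for the empty vector and 0.813% ± 0.0278 for HMGB2. Their TPM ranged from 0.628 to 355 with a median of 83.4, and the median was 104 in the large and 55.5 in the small subunit. The 5 highest were MRPL24, which lies near the exit of the peptide tunnel, MRPL41, MRPL3, MRPL51 and MRPL37. MRPL24 had 374.96 ± 10.5 TPM (SD, n = 3) with the empty vector and 335 ± 6.37 with HMGB2, MRPL41 had 338 ± 29.9 and 353 ± 24.3, and MRPL3 had 336 ± 36.8 and 334 ± 24. The order of MRPL41 and MRPL3 was not separated by their spread in either group.

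The ratio of summed large to summed small subunit TPM was 2.39, 2.41 and 2.54 in the empty vector libraries and 2.52, 2.50 and 2.64 in the overexpression libraries. The third library was the highest in both groups, and the third empty vector library lay above the first and second overexpression libraries. With subunits by structure the ratio was 2.83, 2.85 and 2.98 against 2.96, 2.91 and 3.05, again with overlap.

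The lowest levels per length belonged to genes that overlap a neighbour. A read that falls in a place covered by several genes is counted for none of them in these tables. Of the 78 members, 40 overlap another annotated gene, 15 of them on the same strand and 29 on the opposite strand. There were 8 members with a mean normalized count under 400, and 7 of these overlap a gene on the same strand: MRPL12, MRPL38, MRPL46, MRPL53, MRPS17, MRPS24 and MRPS28. MRPS18C, the other, overlaps a gene on the opposite strand. MRPS24 had normalized counts of 6.75 to 21.5 and its annotated neighbour URGCP-MRPS24 runs through it, MRPL53 had 5.37 to 24.2 and MRPL38 had 16.8 to 28.3. Their log2 fold changes of -0.67 ± 0.612, 0.12 ± 0.621 and 0.14 ± 0.434 (SE) carry the widest errors of the family. Reads set aside in the overlaps are not in these counts, and their part in the low levels was not tested.

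Counting each strand on its own recovered more reads for genes with an opposite-strand neighbour. Less than 50% of that sum was kept in the column for either strand by MRPS18C (11.4%), MRPL4 (38.6%), MRPS2 (43.98%) and MRPS25 (49.3%). MRPL4 lines the peptide exit tunnel, and MRPS2 and MRPS25 belong to the small subunit. From the stranded sums their log2 fold changes were 0.05 for MRPS18C, -0.13 for MRPL4, -0.16 for MRPS2 and 0.08 for MRPS25, and none was called (DESeq2). Since the kit does not mark strand, the sum also holds reads of the neighbour. Over the 38 members with no annotated overlap the medians were 0.05 for 25 large subunit genes and -0.05 for 13 small subunit genes, close to those over all members.

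**Figure D3:**
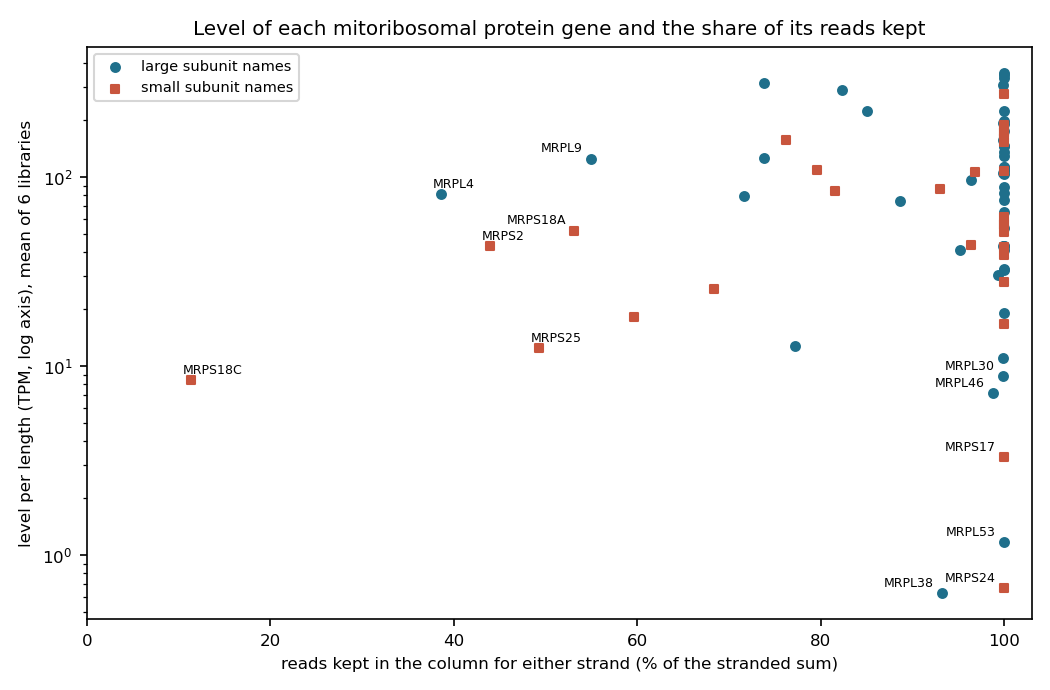
Mean level per length over 6 libraries (y axis, TPM, log scale) against the share of the summed stranded reads that the column for either strand kept (x axis, %), for 49 large subunit genes (circles) and 29 small subunit genes (squares). MRPS18C sits alone at the left with 11.4% kept, and the lowest points at the right, MRPL38, MRPS24, MRPL53, MRPS17 and MRPL46, overlap a gene on the same strand.

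Variation inside the groups followed the third replicates. The third empty vector library was the highest of its group in 67 of 78 members and the third overexpression library in 69, both at once in 63 (80.8%), whereas both were highest in 28.3% of the 16692 genes whose mean normalized count was at least 10. The median log2 difference of the third library from the mean of the first and second was 0.25 with the empty vector and 0.16 with HMGB2, against 0.009 and -0.001 over those genes. The large subunit showed 0.30 and 0.19, and the small subunit 0.19 and 0.12. Related gene families were higher in the same libraries, with 0.22 and 0.18 over 84 cytosolic ribosomal protein genes and 0.32 and 0.25 over 80 nuclear OXPHOS genes. The share of multimapped reads was highest in the third overexpression library, and the part of depth, RNA quality or preparation in this pattern was not tested.

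**Figure D4:**
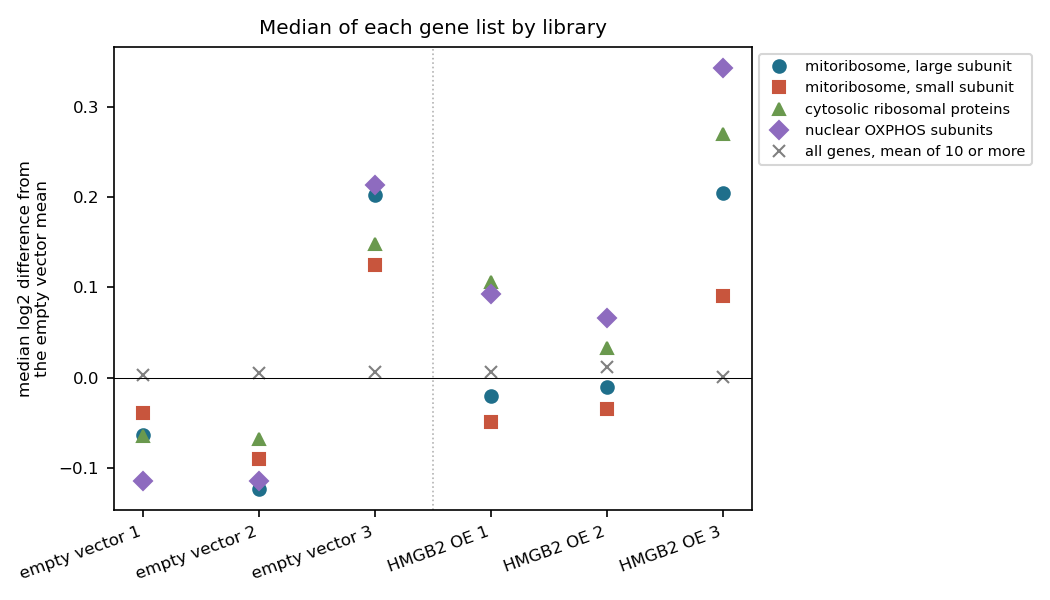
Median log2 difference from the empty vector mean (y axis) in each of the 6 libraries (x axis) for large and small mitoribosomal subunit genes, cytosolic ribosomal protein genes, nuclear OXPHOS subunit genes and all genes whose mean normalized count was at least 10. The third library of each group is the highest for all 4 families (0.20 and 0.20 for the large subunit, 0.13 and 0.09 for the small), while the median of all genes stays within 0.012 of 0.

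When the third replicates were set apart, some members passed the threshold, at a share below that of all genes tested in the same fit. The sample labels name no batch, and the third replicates were set apart with results of these data known. The adjusted p-values of these fits make no allowance for that choice. Replicates 1 and 2 alone leave 2 libraries a group. With a model term for the third replicates, 6 members were called higher (MRPL33, MRPL13, MRPL50, MRPL51, MRPL27 and MRPS11) and 4 lower (MRPL2, MRPS18B, MRPS10 and MRPS18A), which is 13.0% of the 77 members tested, against 17.3% of all 15777 genes tested in that fit. In replicates 1 and 2 alone, 9 were called higher (MRPL33, MRPL44, MRPL18, MRPL13, MRPL50, MRPL51, MRPL57, MRPL27 and MRPS14) and 1 lower (MRPL2), which is 13.2% of 76, against 17.4%. Leaving out only the third empty vector library gave 10 higher and 0 lower (13.0% of 77), against 17.8%. That fit is not balanced, since it keeps the third overexpression library. This library was the highest of its group in 69 of 78 members.

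The size of the difference moved little in some of these members and more in others. MRPL51 had a log2 fold change of 0.29 in replicates 1 and 2 alone (DESeq2 adjusted p = 0.000101) and 0.32 with the term for the third replicates (adjusted p = 2.06e-06), beside 0.32 over all libraries. MRPL2 stood at -0.28 over all libraries and in both of these fits. Its adjusted p was 0.0124 in replicates 1 and 2 alone and 0.00206 with the term (DESeq2). MRPL33 stood at 0.35 (adjusted p = 0.00112) and 0.34 (adjusted p = 0.000134), beside 0.33 over all libraries. Without the third empty vector library, MRPL51, MRPL2 and MRPL33 stood at 0.39, -0.23 and 0.50 (DESeq2 adjusted p = 0.00259, 0.108 and 0.00156). Without the third overexpression library, the same genes stood at 0.215, -0.334 and 0.191, and none was called (DESeq2 adjusted p = 0.754, 0.299 and 0.971). Other members moved by over 1.5 times in at least 1 fit, among them the following. MRPS14 went from 0.13 over all libraries to 0.28 in replicates 1 and 2 alone and 0.36 without the third empty vector library. In the same order, MRPL57 went from 0.17 to 0.31 and 0.32, MRPL18 from 0.13 to 0.21 and 0.31, and MRPL13 from 0.25 to 0.30 and 0.44. MRPL44 went from 0.20 to 0.27 and 0.33, MRPL50 from 0.26 to 0.26 and 0.40, and MRPL27 from 0.19 to 0.22 and 0.30. The subunit medians in replicates 1 and 2 alone were 0.07 for the large and 0.005 for the small subunit. They were 0.16 and 0.07 without the third empty vector library, and -0.02 and -0.07 without the third overexpression library. In bulk RNA, a lower level per cell and fewer cells expressing a gene cannot be told apart, which holds for each value given here.

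Other genes of mitochondrial translation held 1 call in all. Of 5 mitoribosomal subunits with other names, 0 were called (DESeq2; 1 at an unadjusted p under 0.05): the small subunit proteins AURKAIP1, DAP3, CHCHD1 and PTCD3 had log2 fold changes of 0.10, -0.18, 0.28 and 0.20, and GADD45GIP1 of the large subunit 0.19. Among 26 genes for assembly of the mitochondrial ribosome, 1 was called (3.85%, against 4.94% of all genes tested). This was NGRN, which is needed for the large mitochondrial rRNA, and it fell. NGRN had normalized counts of 2020.4, 1839 and 1998 with the empty vector and 1575, 1451 and 1443 with HMGB2, without overlap (log2 fold change -0.39 ± 0.105 SE; adjusted p = 0.00749 by DESeq2). Of 16 mitochondrial translation factors, 10 genes for the expression of mitochondrial DNA and 13 mitochondrially encoded mRNAs, 0 were called. At an unadjusted p under 0.05 there were 1, 1 and 0 (6.25%, 10% and 0%), against 14.3% of all genes tested (DESeq2).

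The mitochondrial rRNAs that the proteins assemble with varied widely between libraries. MT-RNR1, the small subunit rRNA, had normalized counts of 25600.2, 35734 and 39565 with the empty vector and 52534, 34999 and 63681 with HMGB2, and the second overexpression library lay among the empty vector libraries (log2 fold change 0.58 ± 0.218 SE; adjusted p = 0.11 by DESeq2). MT-RNR2, the large subunit rRNA, gave 0.34 ± 0.203 (adjusted p = 0.483). Poly(A) selection keeps only part of these RNAs, so the values describe the selected fraction.

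Cytosolic ribosomal proteins and nuclear OXPHOS subunits had higher medians than the mitoribosome, with no test of the difference made. The median log2 fold change was 0.13 over 85 cytosolic genes tested, of which 2 were called (RPS26 at 0.50 and RPL21 at 0.36, DESeq2 adjusted p = 0.00216 and 0.00486), and 0.15 over 81 OXPHOS genes tested, of which 2 were called (COX7B2 at 0.57 and ATP5F1E at 0.40, adjusted p = 0.0165 and 0.0211). Both lists had called shares, 2.35% and 2.47%, below the 4.94% of all genes. RPS26 and RPL21 have many near-identical processed copies in the genome, so reads of these genes can be lost as multimapped.

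Transcription factors known to act on nuclear genes for mitochondrial proteins were also measured. None of 9 regulators was called (DESeq2). Their log2 fold changes ran from -0.17 to 1.36 with a median of -0.08, and their standard errors from 0.0915 to 0.512. At an unadjusted p under 0.05 there was 1 (11.1%), against 14.3% of all genes tested. NRF1, GABPA (the DNA-binding part of an ETS factor), YY1 and MYC had log2 fold changes of 0.04 ± 0.115, 0.16 ± 0.119, -0.10 ± 0.0932 and -0.17 ± 0.148 (SE). GABPA kept 32.4% of its stranded reads.

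Promoter windows, from 250 bases before to 50 bases after the start, were available from RefSeq (GRCh38.p14) for 69 of the 78 members. The windows of MRPL10, MRPL13, MRPL15, MRPL2, MRPL21, MRPL23, MRPL35, MRPS28 and MRPS36 were not analysed here. Of the 69 windows, 42.0% held the ETS core CCGGAAG on either strand, against 14.2% of 15843 protein-coding and 10.7% of all 27305 windows. The YY1 core AAGATGGC was found in 29.0%, against 3.91% and 3.03%. At least 1 of the ETS, YY1 and NRF1 (CGCATGCG) cores was in 42 of 69 windows (60.9%), against 19.3% of protein-coding windows.

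Other motifs were near or under their shares in protein-coding windows. The Sp1 core GGGCGG was in 60.9% of member windows (58.5% of protein-coding, 44.6% of all), CCAAT in 29.0% (36.4% and 35.7%), the E-box CACGTG in 8.70% (8.88% and 7.43%) and the NRF1 core in 4.35% (2.88% and 2.19%). TATAAA was in 2.90% (9.63% and 11.95%) and the AP-1 site TGACTCA in 0 of 69 windows (3.66% and 4.92%). None of these strings contains another. The median log2 fold change was 0.04 for the 29 members with the ETS core and 0.04 for those without, and 0.04 on both sides for the YY1 core.

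**Figure D5:**
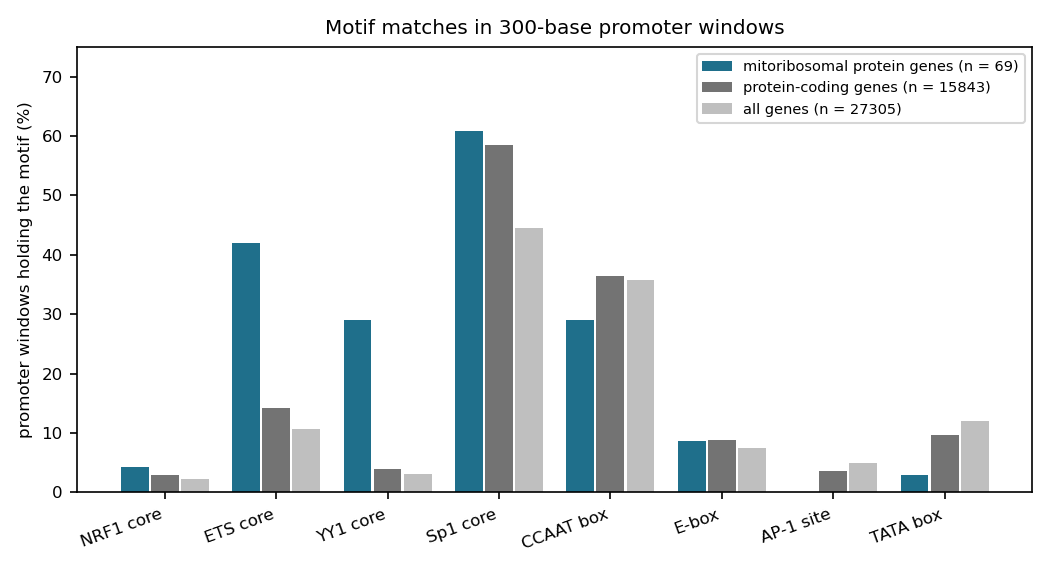
Share of promoter windows holding each motif on either strand (y axis, %), for 69 mitoribosomal protein genes, 15843 protein-coding genes and all 27305 genes in the RefSeq table. The ETS and YY1 cores stand at 42.0% and 29.0% in the members, against 14.2% and 3.91% of protein-coding windows.

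The 150 bases before the start are shown for the members with the largest difference in each direction among those whose mean normalized count was at least 50, MRPL33 (chr2:27771569-27771718, plus strand) and MRPS18A (chr6:43687792-43687941, minus strand), from RefSeq GRCh38.p14. Both are written 5′ to 3′ along the gene, and capitals mark matches to the motifs above, the ETS core in both and the Sp1 core, on the opposite strand, in MRPS18A alone.
MRPL33: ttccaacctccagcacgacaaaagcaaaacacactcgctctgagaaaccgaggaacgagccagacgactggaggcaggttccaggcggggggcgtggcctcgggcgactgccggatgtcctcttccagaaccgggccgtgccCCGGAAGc
MRPS18A: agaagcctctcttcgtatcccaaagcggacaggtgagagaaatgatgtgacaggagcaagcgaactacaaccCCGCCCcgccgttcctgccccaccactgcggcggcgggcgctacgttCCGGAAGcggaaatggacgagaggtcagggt
The ETS core thus begins 8 bases before the start of MRPL33 and 31 bases before that of MRPS18A. A match is a string in the sequence, and no binding was measured here.

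A further feature of the family was its gene order. In GENCODE 44, 17 of 78 members (21.8%) start within 1000 bases of a protein-coding gene running the other way, without overlap at the starts. The share was 8.41% of 19695 protein-coding genes. Pairs that overlap at their starts were not counted in either share. MRPL46 and MRPS11 form such a pair with each other, their starts 63 bases apart. Their log2 fold changes were -0.09 ± 0.228 and 0.26 ± 0.123 (SE), and MRPL46 overlaps a gene on the same strand. MRPL36 and MRPL47 pair with the complex I genes NDUFS6 and NDUFB5, MRPL49 with FAU, which encodes a cytosolic ribosomal protein, and MRPS12 with SARS2, the mitochondrial seryl-tRNA synthetase.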

How the data were processed

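The authors deposited raw counts per gene from reads trimmed and aligned to hg38, in the layout of the STAR gene table, with reads that map once and fall in a single gene; the annotation release is not given in the sources used here. The 58302 Ensembl identifiers were matched to GENCODE 44 (57532 matched; the others held 0.0575% of counts), and the 4 summary lines were left out. The deposited count column for either strand was used. The mitoribosomal members, gene lists and tests were chosen with earlier results of these data known.

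Following the study's methods, counts were tested with DESeq2 1.42.0 (R 4.3.3, Wald test on the group, default parameters, all genes in the fit), with unshrunken log2 fold changes and Benjamini-Hochberg adjustment over all genes. A gene was called at an adjusted p under 0.05. The 95% intervals follow from the model's SE. The code was tested on simulated counts with known changes. Alternatives were edgeR 4.0.16, TMM factors, a filter of 10 counts in 3 libraries, no independent filter, summed stranded columns, a replicate block, a term for the third replicates, replicates 1 and 2 alone, offsets for GC content and length (mgcv 1.9.3), and leaving out each library.

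Genes named were called members, the 5 largest differences in each direction where the mean normalized count was at least 50, the 5 highest and 5 lowest levels per length, a panel of 12 members with known roles, members keeping under 50% of stranded reads, called genes of other lists, the mitochondrial rRNAs, 4 transcription factors and 5 subunits named otherwise. Members named as called under an alternative or as overlapping a neighbour were added after their values were seen, as was the sorting by chromosome. Depth was 45925053 to 56755212 counted reads per library. The precision of a value is that of its SE, which rests on 3 libraries a group.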

Additional observations from a re-analysis of the deposited data

Results flagged for a closer look

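MRPS18C, the mitochondrial counterpart of bacterial S18, had 18720 reads over the 6 libraries in the summed stranded columns, which the comparison did not use, against 2129 in the column for either strand. It was singled out because most reads of that sum lay outside the main measurement, with 11.4% kept. The gene ABRAXAS1 lies on the opposite strand, and an unstranded kit cannot tell the reads of the pair apart. The sum can therefore also hold reads of ABRAXAS1. In the stranded sums its counts were 2730, 3291 and 3258 with the empty vector and 3420, 2878 and 3143 with HMGB2, and the groups overlapped.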

How the results depend on the processing

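Over all genes with an adjusted p, 432 were called higher and 498 lower of 18836. In their place, edgeR called 215 and 255 of 16754, the replicate block 886 and 940 of 14552, the term for the third replicates 1374 and 1359 of 15777, and replicates 1 and 2 alone 1203 and 1418 of 15028. Offsets for GC content and length gave 591 higher and 768 lower of 17612. Leaving out each library in turn gave 155 to 1334 higher and 208 to 1520 lower. For the mitoribosomal genes, the replicate block called 4 higher (all of the large subunit) and 1 lower (large), the term 6 higher (5 large, 1 small) and 4 lower (1 large, 3 small), and replicates 1 and 2 alone 9 higher (8 large, 1 small) and 1 lower (large). The offsets called 1 higher (large, MRPL51, adjusted p = 0.00824 by DESeq2), which is 1.28% of 78 members, against 7.72% of all genes. The replicate block called 6.67% of 75 members, against 12.5% of all genes. Leaving out each library gave 0 to 10 higher, 0 to 9 in the large and 0 to 1 in the small subunit, with calls only without the third empty vector library, and none lower.

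The replicate block is given for completeness, since same-numbered libraries did not all pair. The correlations of their deviations were 0.09, 0.14 and 0.35 for numbers 1, 2 and 3, not all above 0.1. The third libraries correlated best with each other, whereas empty vector replicate 1 correlated best with overexpression replicate 2 (0.21).

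The median log2 fold change of the small subunit ran from -0.108 to 0.0703 and that of the large subunit from -0.0210 to 0.156 when each library was left out. The small subunit median was 0.0212 in the stranded sums. The median of all genes tested was -0.0029 with edgeR, 0.0210 without the independent filter, -0.0078 with the offsets and -0.0047 to 0.0049 when each library was left out. Of 443 values with an adjusted p for 30 named genes under the alternatives, 407 kept direction and call, 25 became called and 11 changed sign, none of these with a call. Sign changes among the 443 values were those of MRPS18C in the stranded sums (0.0450), MRPS17 and MRPL46 in replicates 1 and 2 alone (0.0048 and 0.0307) and, with each library left out, MRPL3 (-0.0725 to 0.171), MRPL38 (-0.0194 to 0.373), MRPL53 (-0.271 to 0.647) and MRPL46 (-0.254 to 0.116). Values without an adjusted p were not counted. Among them, MRPL53 stood at -0.300 in replicates 1 and 2 alone, against 0.119 over all libraries. The cause of these changes was not tested, and 3 libraries a group of technical replicates limit every comparison.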

Other observations

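The members called lower with a term for the third replicates, MRPL2, MRPS10, MRPS18A and MRPS18B, all lie on chromosome 6 between 30 and 45 megabases, together with MRPL14, which had a log2 fold change of 0.08. This was noticed after their values were seen. The 198 genes tested there whose mean normalized count was at least 50, those 5 members included, had a median log2 fold change of -0.05, and 57.6% were negative, against -0.003 and 50.6% of the 13132 other genes. The part of the chromosomal region in the members' values was not tested.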
